A study of Mus musculus with 58 samples.

Results

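The dopamine, cyclic AMP and melatonin pathway of the retina was followed here through 9 genes, chosen by symbol from the 52459 gene rows of the count table: Th, Ddc, Slc18a2, Drd1, Drd2, Drd4, Adcy1, Aanat and Tph1. All 9 were found, and 8 of them passed the filter on low counts that left 18814 genes for testing. Aanat did not pass it. The libraries came from individual retinas of male mice aged 4 months, kept since birth in 12 h of light and 12 h of darkness. The 28 diabetic libraries were from heterozygous Ins2Akita mice (C57BL/6-Ins2Akita/J), which carry 1 mutated copy of the insulin 2 gene and become hyperglycemic, and the 30 control libraries were from their male littermates without the phenotype, labelled C57/BL/6. Each genotype was sampled at ZT1, ZT5, ZT9, ZT13, ZT17 and ZT21, where ZT counts the hours after lights on and the lights went off at ZT12, with 4 to 6 libraries per genotype and time point. All mice were perfused with cold saline before dissection, and the night points were handled under dim red light, so that the time of day, the light itself and this handling cannot be told apart. The Akita mutation acts in the whole body from insulin-producing cells, and a bulk retina cannot tell fewer cells of a type from less RNA per cell.

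Dopamine is made in the retina by a sparse class of amacrine cells and acts as a signal of light. Tyrosine hydroxylase (Th) and aromatic amino acid decarboxylase (Ddc) synthesize it and the vesicular transporter encoded by Slc18a2 loads it into vesicles. D1 receptors raise cyclic AMP and D2-like receptors, among them D2 and D4, lower it, and the D4 receptor of photoreceptors regulates their cyclic AMP pool together with the calcium-stimulated adenylyl cyclase encoded by Adcy1. Melatonin is the opposing signal of the night. It is made from serotonin, for which tryptophan hydroxylase (Tph1) starts the synthesis, and arylalkylamine N-acetyltransferase (Aanat) is the enzyme that times it. C57BL/6 mice carry a natural defect in Aanat and make little melatonin.

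Of the 8 genes tested, 3 were called rhythmic in control retinas, where 12.6% of all genes were. The same 3 were called in diabetic retinas, where 14.7% of all genes were. Drd4 and Drd2 had their highest levels in the dark phase and Adcy1 had its fitted peak toward the end of the light phase. None of the tested genes of dopamine or melatonin synthesis had a called rhythm, and none of the 8 genes tested was called between diabetic and control retinas.

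The promoters of these genes are shown because the genes share a pathway but not a daily pattern. For each gene, 250 bases before the RefSeq start on GRCm38.p6 are written 5′ to 3′ on the strand of the gene, and 8 of the 9 genes had an entry. Both strands were searched for CACGTG (the E-box bound by clock proteins), TTATGTAA (the D-box), AGGTCA (the half-site of ROR and REV-ERB receptors), TGACGTCA (the cyclic AMP response element) and TAATCC (a site of the photoreceptor factor CRX). Capitals mark the motifs found. The windows were chr7:141291768-141292017 on the plus strand for Drd4, chr9:49340153-49340402 on the plus strand for Drd2, chr11:7063183-7063432 on the plus strand for Adcy1 and chr7:142899996-142900245 on the minus strand for Th.
Drd4: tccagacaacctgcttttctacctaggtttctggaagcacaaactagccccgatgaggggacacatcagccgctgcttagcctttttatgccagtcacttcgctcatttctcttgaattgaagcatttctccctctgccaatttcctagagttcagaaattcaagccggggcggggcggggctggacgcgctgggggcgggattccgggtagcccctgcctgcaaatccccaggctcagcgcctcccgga
Drd2: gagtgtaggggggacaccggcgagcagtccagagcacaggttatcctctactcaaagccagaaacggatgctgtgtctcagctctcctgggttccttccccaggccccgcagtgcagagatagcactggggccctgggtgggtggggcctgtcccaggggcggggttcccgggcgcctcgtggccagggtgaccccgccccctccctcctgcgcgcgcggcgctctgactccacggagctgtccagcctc
Adcy1: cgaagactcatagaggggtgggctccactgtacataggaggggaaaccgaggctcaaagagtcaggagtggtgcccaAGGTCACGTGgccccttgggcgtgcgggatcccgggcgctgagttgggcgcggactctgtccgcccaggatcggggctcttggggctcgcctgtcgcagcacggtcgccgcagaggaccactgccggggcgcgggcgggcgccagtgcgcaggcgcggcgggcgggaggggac
Th: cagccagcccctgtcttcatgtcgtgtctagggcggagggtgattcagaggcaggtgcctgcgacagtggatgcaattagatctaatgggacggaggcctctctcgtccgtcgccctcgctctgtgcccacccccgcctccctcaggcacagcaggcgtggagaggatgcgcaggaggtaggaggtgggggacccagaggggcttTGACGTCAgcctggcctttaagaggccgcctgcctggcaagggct
None of the searched motifs was in the Drd4 or Drd2 window. The Adcy1 window held an E-box at position -169, counted from the RefSeq start, which overlaps a ROR and REV-ERB half-site at -173. The E-box was in 7.15% and the half-site in 16.255% of all 32851 mouse promoter windows. For each motif, these windows also ran past the start. The shares for the 250 bases alone would therefore be no higher than those given. Th held a cyclic AMP response element at -45, and Slc18a2 held one at -4 that crosses its start. This element was in 1.79% of windows, and both genes that hold it were without a called rhythm. The half-site was also in a Ddc window at -73 and in the second Tph1 window at -157. The D-box was in none of the windows of these genes and in 0.938% of all windows, and the CRX site was likewise in none and in 7.062% of all. Drd1 held no searched motif. A match is only a match of letters.

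The 9 genes spanned a wide range of expression. Levels are compared between genes as RPKM, which scales reads by exon length and by library size, given as mean ± SD over the 30 control libraries. Drd4 was highest at 66.5 ± 27.0, followed by Adcy1 at 49.4 ± 4.03. The ranges of these 2 genes overlapped, since Drd4 ran from 37.7 to 123.0 over the day and Adcy1 from 40.5 to 56.3. Drd2 at 14.2 ± 3.31 and Drd1 at 13.9 ± 1.16 did not differ beyond their spread. Th was lower, at 1.04 ± 0.283, and its range of 0.438 to 1.66 overlapped that of Slc18a2, which was at 0.539 ± 0.121. Ddc at 0.162 ± 0.0637, Aanat at 0.155 ± 0.0982 and Tph1 at 0.0764 ± 0.0393 overlapped each other. The order in diabetic retinas was the same except that Drd1, at 13.9 ± 1.14, was above Drd2, at 13.3 ± 2.45, and Aanat, at 0.146 ± 0.0752, was above Ddc, at 0.145 ± 0.0590. All levels of the low genes rest on few reads. Th had 10 to 73 reads per library, Ddc 3 to 30, Tph1 0 to 20 and Aanat 0 to 10, against 1096 to 7646 for Drd4 and 5334 to 12129 for Adcy1.

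The libraries held 7773117 to 22147398 counted reads, and retinal markers were abundant, with a summed normalized level of 497500 to 772000 for 6 rod markers and 14290 to 18760 for 7 amacrine markers. Lens markers stood apart in 3 control libraries (ZT1 replicate 6, ZT17 replicate 5 and ZT21 replicate 2), where the sum of 6 markers was 34350 to 50130 against 1448 at most in the other libraries. Without these 3 libraries Drd4, Drd2 and Adcy1 were still called rhythmic, with an adjusted p of at most 0.00908 in control and 3.3e-05 in diabetic retinas (edgeR). Ins2 itself had 0 to 6 reads and none in 29 of the 58 libraries, so that the retina gives no check of the genotype by its level.

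Drd4, the dopamine D4 receptor gene (chr7:141292006-141296464, plus strand, GRCm38), had the largest peak-to-trough of the fitted cosine among the 9 genes. All values per library below are normalized read counts, which are counts divided by the TMM-scaled library size and multiplied by its mean. In control retinas at ZT5, the 6 libraries had a lowest value of 1902, a median of 2036 and a highest value of 2405. At ZT17 the 5 control libraries had 4880, 3820, 6205, 5687 and 5398, and at ZT21 the 4 libraries had 4262, 3949, 5377 and 6038. Every control library of ZT17 and ZT21 was above every one of the light phase. At ZT1 the control libraries had 3215, 2793, 2287, 2880 and 2696, and at ZT9 they had 2341, 2190, 2057, 3034 and 2468. The control libraries of ZT13, 1 h after lights off, were 2455, 2704, 2854, 4752 and 3880. The first 3 of these lay among the light-phase values and the other 2 above them.

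In diabetic retinas Drd4 was lowest at ZT5 as well, with 2011, 1898, 1893, 2313 and 1864. At ZT13 the 4 diabetic libraries had 4047, 3665, 4437 and 5171, all above every diabetic library of the light phase. The values were 4274, 5029, 4682 and 3762 at ZT17 and 4172, 3534, 4588, 4215 and 4643 at ZT21. So the diabetic dark-phase groups overlapped each other and no light-phase group. At ZT1 the diabetic libraries had 2367, 1819, 2502, 2903 and 2338, and at ZT9 they had 2432, 2067, 2114, 2480 and 2368.

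The fitted 24 h cosine of Drd4 had a log2 peak-to-trough of 1.36 ± 0.13 (SE, n = 30) in control and 1.36 ± 0.108 (SE, n = 28) in diabetic retinas, which is a 2.56-fold and a 2.57-fold range. The acrophase, the time of the fitted peak, was ZT18.3 ± 0.373 h in control and ZT17.1 ± 0.298 h in diabetic retinas. The rhythm was called in both, with an adjusted p of 8.25e-14 and 1.46e-12 (edgeR quasi-likelihood F test of the cosine and sine terms, Benjamini-Hochberg over all genes). Among the control libraries 12.6% of all genes tested had a called rhythm, and among the diabetic libraries 14.7%, against 3 of the 8 tested genes of the pathway in each. In the edgeR fit, and not by least squares, the median log2 peak-to-trough of these 8 was 0.335 in control and 0.393 in diabetic retinas. Over all genes it was 0.203 and 0.208.

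Drd2, the dopamine D2 receptor gene that also serves as the autoreceptor of dopamine cells (chr9:49340627-49408177, plus strand), was highest in the dark phase too, with a smaller range. At ZT17 the control libraries had 821.3, 587.2, 862.6, 694.6 and 696.8, all above the 6 control libraries of ZT5, with a lowest value of 385.2, a median of 451.0 and a highest value of 477.8. The diabetic libraries had 504.8, 782.4, 625.2 and 634.3 at ZT17 and 423.1, 401.5, 386.7, 529.3 and 429.9 at ZT5. Here the groups overlapped, through 1 library of each. The group means of the control retinas were 507 ± 40.7 at ZT1, 442 ± 75.8 at ZT9, 517 ± 51.4 at ZT13 and 641 ± 78.3 at ZT21 (SD). Those of the diabetic retinas were 462 ± 50.6, 437 ± 30.7, 518 ± 62.0 and 570.5 ± 43.1 at the same times. In both genotypes the mean of ZT13 was nearer to the light-phase means than to that of ZT17.

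The Drd2 cosine had a log2 peak-to-trough of 0.73 ± 0.092 (SE) with an acrophase of ZT18.6 ± 0.482 h in control retinas. In diabetic retinas these were 0.55 ± 0.0861 and ZT17.8 ± 0.592 h. The adjusted p of the rhythm was 1.04e-08 in control and 2.44e-05 in diabetic retinas (edgeR). Over the 12 group means, the log2 levels of Drd2 and Drd4 had a Pearson correlation of 0.933, given as a description, since the means come from the same libraries.

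Drd1, the D1 receptor gene (chr13:54051183-54055705, minus strand), was expressed like Drd2 in level but had no called rhythm. Its group means were 707 to 778 in control retinas. Those of the diabetic retinas were 721 to 792. The highest and lowest groups overlapped in both genotypes. Its log2 peak-to-trough was 0.12 ± 0.0585 in control and 0.15 ± 0.0588 in diabetic retinas (SE), with an adjusted p of 0.327 and 0.205 (edgeR). Drd1 was also highest at ZT17 in both genotypes, with an unadjusted p of 0.0605 for the diabetic rhythm.

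Adcy1, the adenylyl cyclase stimulated by calcium and calmodulin (chr11:7063489-7178506, plus strand), was highest from ZT5 to ZT13. The control libraries had 8273, 7891, 8413, 8879 and 8497 at ZT1 and 10480, 9837, 9957, 10130 and 9526 at ZT13. These groups did not overlap. In diabetic retinas the libraries had 7930, 8049, 7712, 7610 and 6765 at ZT1 and 9489, 9356, 11010, 9286 and 10490 at ZT9. These groups did not overlap either. At ZT21 the control libraries had 8628, 8945, 8499 and 8702, and the diabetic ones had 8424, 7934, 7859, 7872 and 7789. These groups did not overlap, but 0.0% of all genes were called at ZT21, and the Adcy1 difference had an unadjusted p of 0.0624 and an adjusted p of 1.0 (edgeR).

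The range of Adcy1 was narrow beside its level. The log2 peak-to-trough was 0.24 ± 0.0467 (SE), a 1.18-fold range, in control and 0.41 ± 0.058, a 1.33-fold range, in diabetic retinas. Its acrophase was ZT10.3 ± 0.705 h in control and ZT9.91 ± 0.558 h in diabetic retinas, so that its fitted peak lay before lights off and those of Drd4 and Drd2 lay in the dark. Its highest group mean was at ZT13 in control and at ZT9 in diabetic retinas. The rhythm had an adjusted p of 0.00452 in control and 2.76e-07 in diabetic retinas (edgeR). The control call was lost without the libraries of ZT1, with an adjusted p of 0.0612, and without those of ZT13, with 0.0519.

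**Figure D1:**
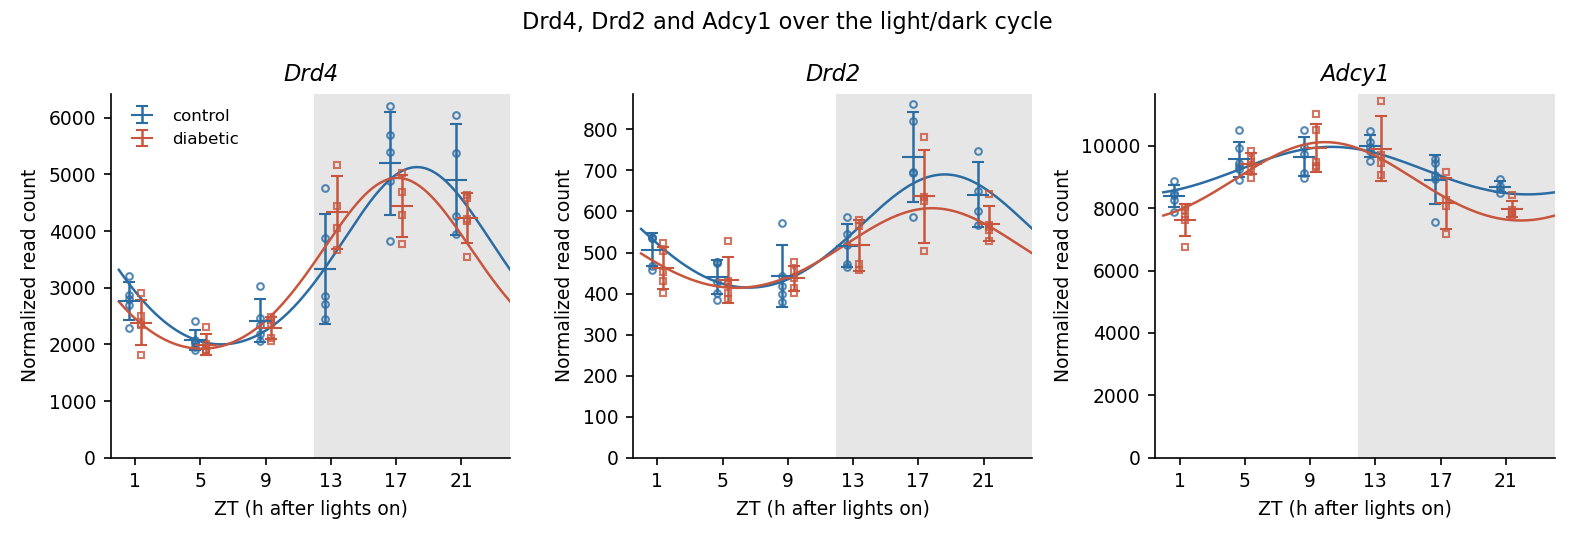
Normalized read counts of Drd4, Drd2 and Adcy1 (y axis) by ZT in hours (x axis) in control (blue circles) and diabetic (red squares) retinas, with 1 open symbol per library, bars for the mean ± SD of the group, lines for the fitted 24 h cosine and grey for the dark phase. Drd4 ran from a mean of 2070 at ZT5 to 5198 at ZT17 in control retinas, while Adcy1 ran from 8391 at ZT1 to 9987 at ZT13.

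Th, the gene of the rate-limiting enzyme of dopamine synthesis (chr7:142892752-142931128, minus strand), lies 149.4 kb from Ins2. At ZT1 its control libraries had 44.5, 38.8, 42.5, 42.4 and 44.3 and its diabetic libraries had 25.4, 26.8, 22.5, 39.3 and 38.3. The groups overlapped narrowly. At ZT13 the control libraries were at their lowest, with 28.6, 27.1, 15.5, 26.8 and 28.8, and did not overlap those of ZT1. The control rhythm of Th had an unadjusted p of 0.0685 and an adjusted p of 0.226, and the diabetic rhythm an adjusted p of 0.787 (edgeR). Its least-squares cosine in control retinas had a log2 peak-to-trough of 0.55 ± 0.198 (SE), against 0.44 in the edgeR fit that gave the p-values.

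Ddc (chr11:11814101-11898144, minus strand) had group means of 8.54 to 12.7 in control and 7.15 to 13.6 in diabetic retinas, and the highest and lowest groups overlapped. The group means of Slc18a2 (chr19:59260896-59296012, plus strand) were 37.1 to 52.9 in control and 38.3 to 43.6 in diabetic retinas, and again overlapped. The adjusted p of the rhythm was 0.544 and 0.471 for Ddc and 0.567 and 0.969 for Slc18a2 in control and diabetic retinas (edgeR). Both genes overlap an antisense gene, which shares no exon bases with Ddc and 2.12% of those of Slc18a2. Whether the counting used strand is not given in the sources used here.

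Th, Ddc, Slc18a2 and Drd2 are used by the same amacrine cells, and their covariation was tested across libraries after removing the mean of each group. Drd2 was at 14.2 RPKM in control retinas against 1.04 for Th, and which cells its reads came from was not tested. None of the 6 pairs passed over the 58 libraries. The nearest was Th with Drd2, with a Pearson r of 0.416 (p = 0.0105, adjusted p = 0.0633) and a Spearman rho of 0.343 (p = 0.0213, adjusted p = 0.128), by a two-sided permutation test within groups. Without the 2 libraries farthest in Th, r was 0.346. Within the 28 diabetic libraries alone r was 0.654, with an adjusted p of 0.0124, and within the 30 control libraries 0.215, with an adjusted p of 0.394. Whether these 2 correlations differ was not tested.

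Of the genes of melatonin synthesis, Tph1 (chr7:46644641-46672537, minus strand) had 13.2, 16.2, 12.2 and 10.9 in the diabetic libraries of ZT17 and 5.94, 5.07, 5.97 and 3.68 in those of ZT13. These groups did not overlap, but the cosine had an adjusted p of 0.714 in diabetic and 0.985 in control retinas (edgeR). In control retinas at ZT17 the values were 5.95, 6.60, 8.12, 11.5 and 11.5, which overlapped the diabetic ones. Aanat (chr11:116586432-116597680, plus strand) had a median of 3 reads per library. Its group means were 3.42 to 4.58 in control and 2.38 to 4.69 in diabetic retinas, each with an SD of 1.28 to 3.40. Fitted without the filter, its adjusted p was 1.0 in control and 0.906 in diabetic retinas (edgeR).

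**Figure D2:**
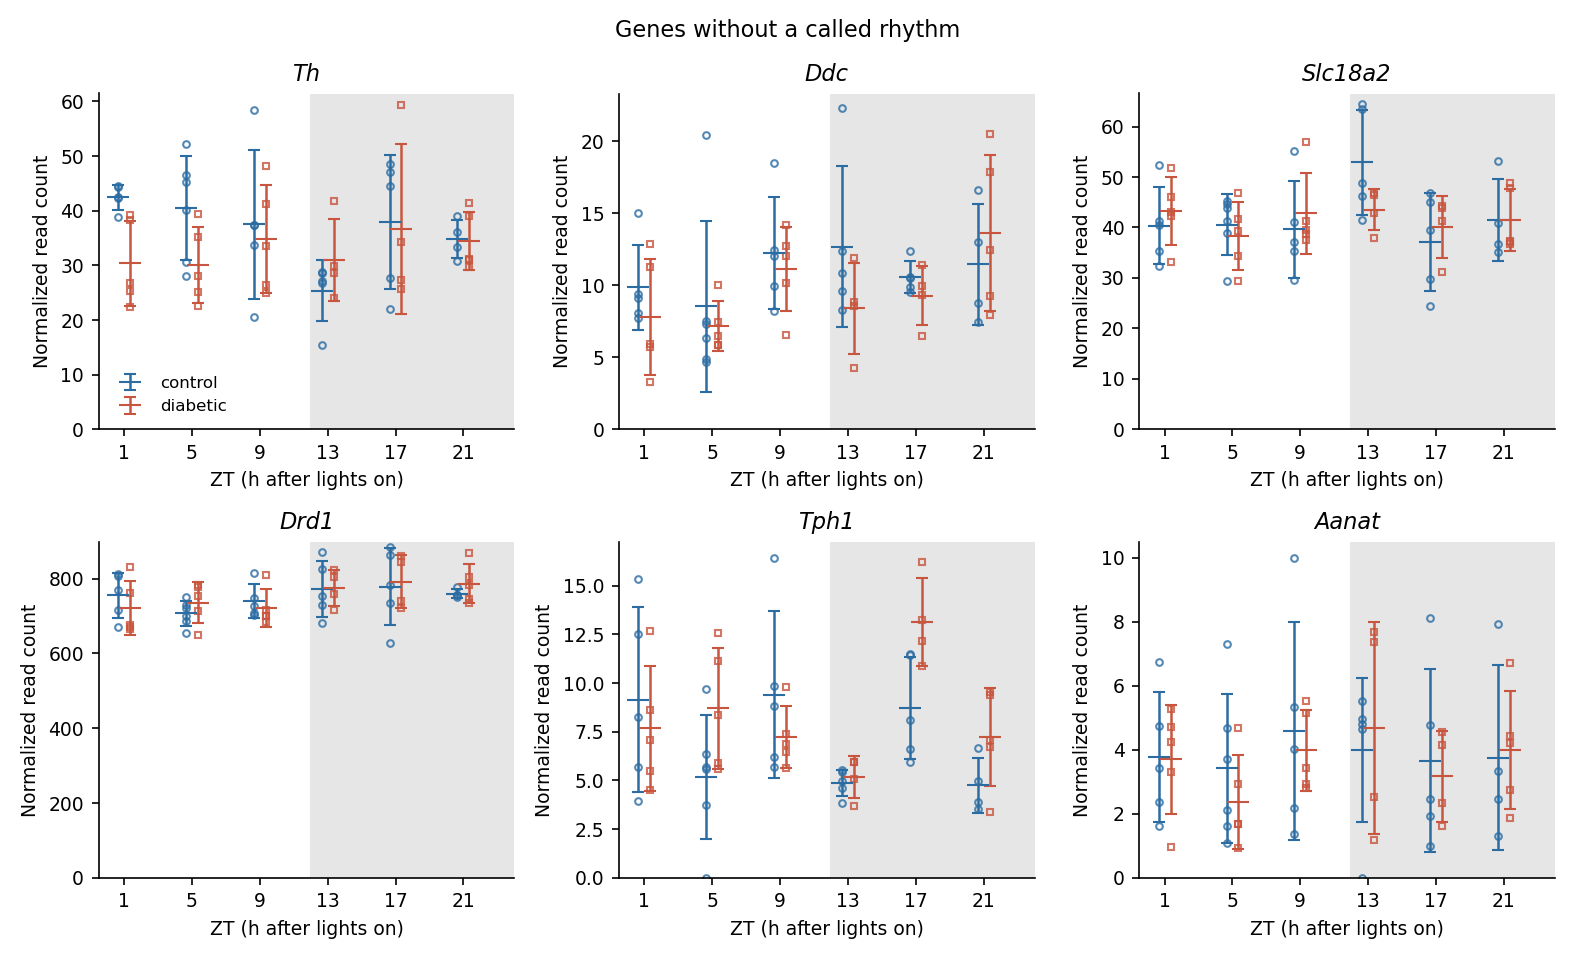
Normalized read counts of Th, Ddc, Slc18a2, Drd1, Tph1 and Aanat (y axis, a scale for each gene) by ZT in hours (x axis), with 1 open symbol per library, bars for the mean ± SD of the group and grey for the dark phase; control retinas are blue circles and diabetic retinas red squares. The groups overlap for most genes and times, and the mean of Th in control retinas ran from 25.3 at ZT13 to 42.5 at ZT1.

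The middle of the dark phase was next compared with the middle of the light phase, which needs no waveform. In control retinas, 15.9% of all genes were called between ZT17 and ZT5, and Drd4 and Drd2 were called among the 8 tested. Drd4 was higher at ZT17 by a log2 difference of 1.33 ± 0.128 (adjusted p = 6.77e-11) and Drd2 by 0.73 ± 0.1 (adjusted p = 5.71e-07; edgeR, SE). In diabetic retinas, 7.73% of all genes were called, and 3 of the 8. The differences there were 1.15 ± 0.141 for Drd4 (adjusted p = 7.13e-08) and 0.55 ± 0.11 for Drd2 (adjusted p = 0.000661; edgeR). Adcy1 fell by 0.21 ± 0.0656 from ZT5 to ZT17 in diabetic retinas (adjusted p = 0.0378), and its difference in control retinas was -0.10 ± 0.0591 (adjusted p = 0.235; edgeR). The diabetic Adcy1 call was lost without a filter on low counts, with an adjusted p of 0.107. It was also lost when any of 7 diabetic libraries of these times was left out, with an adjusted p of up to 0.19 without ZT17 replicate 4.

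Whether the rhythms differed between genotypes was tested directly. No gene of the 18814 was called (0.0%), with 637 genes at an unadjusted p under 0.05 and 0 called by DESeq2, and the adjusted p of the 8 genes tested was 1.0 (edgeR). These 637 genes are fewer than the share of 0.05 of all genes that chance alone would give. The unadjusted p was 0.0551 for Drd4, 0.0756 for Adcy1, 0.105 for Th and 0.21 for Drd2. The acrophase of Drd4 was 1.2 h earlier in the diabetic retinas, with a 95% interval of the difference of -2.14 to -0.263 h that is not corrected for the number of genes. The log2 peak-to-trough of Drd4 differed by 0.00255, with an interval of -0.329 to 0.334. For Drd2 the acrophase difference was -0.779 h (95% interval -2.27 to 0.717 h). The peak-to-trough of Adcy1 was larger in diabetic retinas by 0.172 on the log2 scale (95% interval 0.0264 to 0.319), and its acrophase differed by -0.409 h (95% interval -2.17 to 1.35 h). The acrophase of Th, which had no called rhythm in either genotype, differed by -9.08 h (95% interval -17.4 to -0.744 h). The diabetic Th cosine had a log2 peak-to-trough of 0.18 ± 0.193 (SE). Its acrophase is therefore not defined, and no difference can be read from this interval. Besides the acrophases of Th and Drd4 and the peak-to-trough of Adcy1, no interval of these kinds excluded 0 among the 9 genes. None of these differences passed the test over all genes.

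Diabetic and control retinas were compared over all time points with the time point in the fit. None of the 8 genes was called, and 4.89% of all genes were, 464 higher and 456 lower in diabetic retinas. Adcy1 had a log2 difference, diabetic minus control, of -0.062 ± 0.0262 (unadjusted p = 0.0214, adjusted p = 0.175; edgeR). Drd2 had -0.089 ± 0.0433 (unadjusted p = 0.0452, adjusted p = 0.26; edgeR). The other differences were -0.071 ± 0.0594 for Drd4, 0.006 ± 0.0303 for Drd1, -0.15 ± 0.0969 for Th, -0.19 ± 0.136 for Ddc, 0.0026 ± 0.0712 for Slc18a2 and 0.22 ± 0.151 for Tph1. Each had an adjusted p of 0.443 or more (edgeR). Some markers of photoreceptors and bipolar cells also differed between the genotypes. The median summed level in diabetic retinas was below that in control retinas at all 6 time points for rod markers (574400 against 656900 at ZT1), cone markers (11040 against 12600 at ZT1) and bipolar cell markers (23340 against 26150 at ZT17). Lower in diabetic retinas by the edgeR test were 1 of 6 rod, 3 of 6 cone, 2 of 6 bipolar and 0 of 7 amacrine markers, and 0 of these were higher, beside the 4.89% of all genes. Their part in the differences of Adcy1 and Drd2 was not tested.

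At single time points none of the 8 genes was called either. Of all genes, 0.0106% were called at ZT1 and 0.0213% at ZT5, 0.00532% at the end of the light phase (ZT9), and 0.0%, 0.181% and 0.0% at the 3 times of the dark phase, ZT13, ZT17 and ZT21. The smallest unadjusted p among the 8 genes was that of Drd4 at ZT13, where diabetic retinas were 0.38 ± 0.14 higher on the log2 scale (unadjusted p = 0.00955, adjusted p = 0.851; edgeR). Replicates 4 and 5 had the highest Drd4 values of ZT13 in both genotypes, and the diabetic group had no replicate 2. Whether this bears on the difference was not tested. At the other 5 time points the Drd4 difference lay between -0.23 at ZT17 and -0.053 at ZT5. Adcy1 at ZT1 had a difference of -0.14 ± 0.0617 (unadjusted p = 0.027, adjusted p = 0.805) and Th at ZT1 of -0.45 ± 0.227 (unadjusted p = 0.0511, adjusted p = 0.907; edgeR). With 0 genes called at ZT13 and ZT21 by edgeR, 838 and 874 genes had an unadjusted p under 0.05 and DESeq2 called 1 and 8. Both 838 and 874 are below the share of 0.05 of all genes that chance alone would give.

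**Figure D3:**
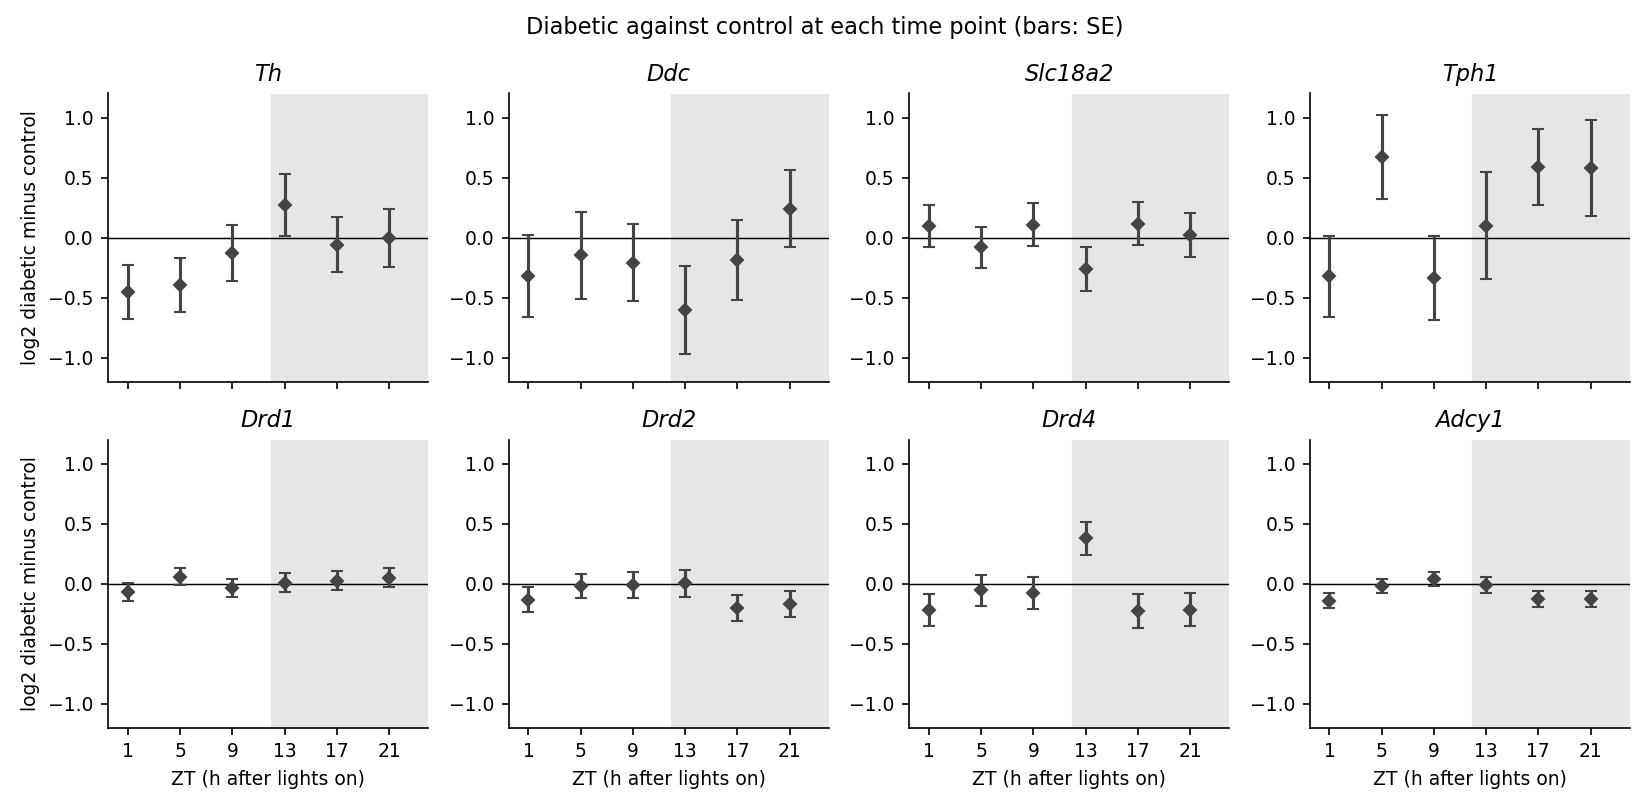
Log2 difference of diabetic minus control retinas (y axis, the same scale in each panel) by ZT in hours (x axis) for the 8 genes tested, with the SE as bars and grey for the dark phase. The Drd4 difference is 0.38 at ZT13 and below 0 at the other times, and no difference was called.

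The other genes of the pathway were taken from a list of 71, of which 61 passed the filter. A rhythm was called for 10 of these in control and for 8 in diabetic retinas, near the shares of all genes given above, and 7 were rhythmic in both. The share of all genes called in both genotypes is not given here. All 7 had their highest mean at ZT17 in both genotypes. The medians of the log2 peak-to-trough over the 61 in the edgeR fit were 0.192 in control and 0.166 in diabetic retinas.

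Of 7 G protein alpha subunits tested, 2 were called in each genotype, Gnaz and Gnao1, both of the inhibitory class through which D2-like receptors act. The other inhibitory subunits, Gnai1, Gnai2 and Gnai3, were called in neither. Gnai3 had its control acrophase in the light phase, at ZT5.12 (adjusted p = 0.0612; edgeR). Gnaz had a log2 peak-to-trough of 0.89 ± 0.125 (SE) in control and 0.84 ± 0.0935 in diabetic retinas, with acrophases of ZT18.7 and ZT17.6. Its adjusted p was 7.23e-09 and 2.55e-07 (edgeR). Gnao1 had 0.33 ± 0.0854 and 0.32 ± 0.0838, with an adjusted p of 0.00813 and 0.0148 (edgeR). Without the ZT17 libraries the call of Gnao1 was lost in both genotypes, with an adjusted p of 0.217 in control retinas and 0.157 in diabetic ones, and the diabetic call was also lost in 3 other alternatives, without ZT9 or ZT21 or by JTK_CYCLE (adjusted p = 0.0615 to 0.0912). Of 9 other adenylyl cyclases 1 was called, a share near those of all genes (12.6% and 14.7%). This was Adcy8, another calcium-stimulated form, with acrophases of ZT17.9 and ZT18.1. These lay in the dark, unlike those of Adcy1. Its log2 peak-to-trough was 0.34 ± 0.0607 and 0.32 ± 0.0843 (adjusted p = 0.00109 and 0.00508; edgeR), and without the ZT17 libraries the adjusted p was 0.179 and 0.223.

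The phosphodiesterases, which break down cyclic AMP, gave 5 called genes of 15 tested in control retinas, where 12.6% of all genes were called, and 3 in diabetic retinas, near the 14.7% of all genes. Pde8b had 0.66 ± 0.0443 in control and 0.74 ± 0.0654 in diabetic retinas, with acrophases of ZT19.8 and ZT19.3, and Pde8a had 0.56 ± 0.07 and 0.64 ± 0.0731, at ZT19.5 and ZT18.7. The adjusted p was 4.28e-13 and 7.44e-15 for Pde8b and 5.88e-08 and 3.3e-09 for Pde8a (edgeR). Pde1b had 0.35 ± 0.056 and 0.26 ± 0.0688, at ZT20.3 and ZT19.2 (adjusted p = 0.000238 and 0.0057; edgeR), and its diabetic call was lost without ZT21 (0.0796) and by JTK_CYCLE (0.155). Pde4b and Pde4d were called in control retinas, with acrophases of ZT3.13 and ZT4.15 in the light phase, and had an adjusted p of 0.743 and 0.142 in diabetic retinas. The control call of Pde4b was lost without ZT1 (0.171) and without ZT17 (0.103). That of Pde4d was lost in 5 of 72 alternative fits, with an adjusted p of 0.0505 to 0.0942, namely without ZT1, ZT13, ZT17 or control ZT17 replicate 4 and with the replicate block. The difference in rhythm of these genes had an unadjusted p of 0.0907 and 0.188 and an adjusted p of 1.0 (edgeR).

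Phosducin (Pdc), a photoreceptor protein that binds G protein beta-gamma subunits and is phosphorylated under the control of cyclic AMP, had 0.49 ± 0.073 in control and 0.62 ± 0.0786 in diabetic retinas, at ZT17.5 and ZT16.4 (adjusted p = 6.64e-06 and 1.54e-07; edgeR). Prkaca, a catalytic subunit of protein kinase A, was called in control retinas (adjusted p = 0.014) and had an adjusted p of 0.0542 in diabetic retinas, with a difference at an adjusted p of 1.0 (edgeR). Its control call was lost without ZT5 (0.0848), without ZT17 (0.318), by JTK_CYCLE (0.0693) and without control ZT17 replicate 3 (0.0621). Prkacb, another catalytic subunit, had an adjusted p of 0.743 in control and 0.599 in diabetic retinas (edgeR). Apart from Pdc and Prkaca, no listed effector or target of cyclic AMP was called rhythmic in either genotype. Nr4a2, a transcription factor of dopamine neurons, was called in diabetic retinas (adjusted p = 0.0377) and had 0.404 in control retinas (edgeR). The diabetic call of Nr4a2 was lost in 18 of 72 alternative fits, with an adjusted p of up to 0.197, among them no filter on low counts (0.0687), the F test over 6 time points (0.0871), JTK_CYCLE (0.0953) and 10 fits that each left out 1 diabetic library. No other of the 9 tested genes of dopamine synthesis, storage and breakdown was called. Slc6a3, Dbh, Drd3, Pde4c, Asmt, Mtnr1a, Mtnr1b, Gpr50, Slc6a4 and Slc18a1 had too few reads to be tested, so that the dopamine transporter and the melatonin receptors were not tested at this depth.

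**Figure D4:**
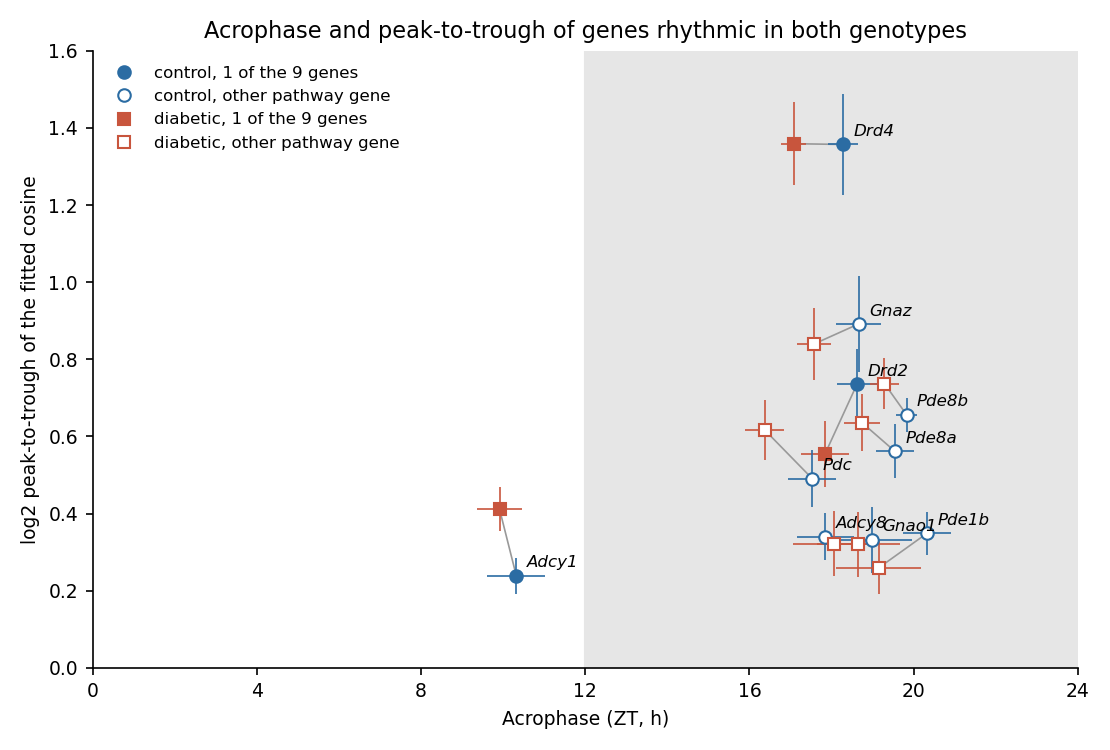
Acrophase in ZT hours (x axis) against the log2 peak-to-trough of the fitted cosine (y axis) for Drd4, Drd2 and Adcy1 (filled symbols) and the 7 other pathway genes rhythmic in both genotypes (open symbols), with SE bars; blue circles are control and red squares diabetic retinas, joined for each gene, and grey is the dark phase. Adcy1 lies at ZT10.3 and ZT9.91, and the other 9 genes lie between ZT16.4 and ZT20.3.

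Between diabetic and control retinas over all times, 4 of the 61 genes were called, a share near the 4.89% of all genes. Tph2, the tryptophan hydroxylase of neurons, fell from 42.9 ± 8.46 (SD, n = 30) to 34.7 ± 8.67 normalized counts (n = 28), a log2 difference of -0.33 (adjusted p = 0.0179; edgeR). Pde10a rose from 702 ± 118 to 809 ± 184, a difference of 0.21 (adjusted p = 0.0261; edgeR), and the call was lost without the time point in the fit, with an adjusted p of 0.106. Rapgef3, a cyclic AMP sensor, had 0.18 (adjusted p = 0.0378), and Pkig, an inhibitor of protein kinase A, had -0.13 (adjusted p = 0.032; edgeR). Rapgef3 was not called in 12 and Pkig in 13 of 64 alternative fits, with an adjusted p of up to 0.069 and 0.0595. The libraries of both genotypes overlapped for all 4 genes.

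Across all genes with a mean of at least 10 normalized counts, those with group means most like Drd4 were Hk2 (r = 0.975), Rhobtb1 (r = 0.971) and Parvb (r = 0.968). For Drd2 they were Zdhhc5 (r = 0.987), Tpi1 (r = 0.981) and Gapdh (r = 0.978), and for Adcy1 Ntm (r = 0.942), Mecr (r = 0.925) and Cacnb2 (r = 0.915). These are Pearson correlations of log2 levels over the same 12 group means among 16999 genes, given as a description. Hk2, Tpi1 and Gapdh encode enzymes of glycolysis.

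Markers of some cell types also varied with the time of day, beside 12.6% of all genes called rhythmic in control and 14.7% in diabetic retinas. A rhythm was called for 5 of 6 bipolar cell markers in control retinas and for 4 in diabetic ones, and the median of their summed level was 20790 at ZT9 and 26150 at ZT17 in control retinas. Over all libraries this sum ran from 18000 to 27710 in control and from 16660 to 26090 in diabetic retinas. Of 6 pigment epithelium markers, Rpe65 and Ttr were rhythmic in both genotypes, and the summed level ran from 225.3 to 2585 in control and from 217.0 to 2842 in diabetic retinas. Its median was 653.0 at ZT5 and 1342 at ZT17 in control and 267.0 and 1119 in diabetic retinas. Among 6 cone markers, 4 had a called rhythm in control retinas and 3 in diabetic ones, with a summed level of 11260 to 13440 and of 10780 to 13340. Of 6 Müller glia markers, 2 and 3 were rhythmic, with sums of 43620 to 60610 and of 42450 to 62440. Each of the 6 lens markers was called in control retinas and 0 in diabetic ones, where the 3 control libraries named above hold the high values. Of 7 amacrine markers, 0 were called in control retinas and 1 in diabetic ones, and of 6 rod markers 1 in each. No marker of these lists was at 0 in all libraries of a genotype. The part of these markers in the rhythms of Drd4, Drd2 and Adcy1 was not tested.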

How the data were processed

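Total RNA of individual retinas was depleted of ribosomal RNA (KAPA RNA HyperPrep with RiboErase) and sequenced. The authors aligned reads with STAR 2.7.4a to GRCm38.p5 with Gencode M15 and counted them per gene with HTSeq 0.11.1, per the methods and the submitters' processing notes. They deposited raw read counts per gene symbol, neither normalized nor filtered, in 1 column for each of 58 libraries. Strand use in the counting is not given in the sources used here. Groups came from the sample titles.

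Library totals were 7773117 to 22147398 counts, and low genes carry the larger counting error. Genes passing filterByExpr (18814 of 37233 with any read) were fitted in R 4.3.3 with edgeR 4.0.16 (TMM, quasi-likelihood F test, Benjamini-Hochberg adjustment, called under 0.05). The first fit held the cosine and sine of a 24 h period within each genotype, the second the genotype with the time point, the third 1 mean for each of 12 groups. Peak-to-trough of single genes, acrophase and their delta-method errors came from a least-squares cosine on log2(normalized count + 0.5) in Python 3.11.15. Medians of the peak-to-trough over genes, and its ranges over alternatives, came instead from the coefficients of the fits that gave the p-values. The 2 measures can differ for genes with few reads. Peak-to-trough cannot be below 0, so that noise alone gives values above it. Covariation was tested with 100000 permutations within groups. Alternatives were DESeq2 1.42.0 size factors or its own test, no filter, a block for the replicate number, each library or time point left out, no time point in the fit, an F test over the 6 time points, each genotype fitted alone, and a re-implemented empirical JTK_CYCLE (normalized median above 4, 6 phases, 5 widths). Leaving out 3 libraries high in lens markers was chosen after seeing the data. Tests were tried on simulated data. The 113 replicate pairs each differed by more than sampling noise (chi-square per degree of freedom of 1.86 or more).

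The 9 genes, the pathway and marker lists were chosen with earlier results of these data known. Named besides the 9 were Ins2, listed pathway genes called rhythmic in both genotypes or called between genotypes, and the 3 genes most alike in group means to each rhythmic one. Pathway genes called in 1 genotype were named after their values were seen. Gene positions are from Gencode M21 (GRCm38) and promoters from RefSeq (GRCm38.p6). The replicates are described as biological replicates. Litters are not given in the sources used here, so that p-values measure the spread between these libraries.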

Additional observations from a re-analysis of the deposited data

Results flagged for a closer look

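Single libraries stood apart from their group in 9 of 108 groups of 4 to 6 libraries tested over the 9 genes, by the gap to the nearest library against the range of the group. Chance flags about 1 in 20 groups. In normalized read counts, Drd4 was 2405 in control ZT5 replicate 5 against 1902 to 2082 in the others, and Adcy1 was 8424 in diabetic ZT21 replicate 1 against 7789 to 7934. Th was 15.46 in control ZT13 replicate 3 against 26.75 to 28.84. Ddc was high in 3 control libraries, with 15.01 in ZT1 replicate 6 against 7.70 to 9.44, 20.47 in ZT5 replicate 3 against 4.68 to 7.55 and 22.34 in ZT13 replicate 1 against 8.30 to 12.37. In diabetic ZT9 replicate 3, Slc18a2 was 56.94 against 37.61 to 41.23 and Drd1 was 808.9 against 683.6 to 714.6. Aanat was 0.0 in control ZT13 replicate 2 against 4.64 to 5.54. Control ZT1 replicate 6 is 1 of the 3 libraries high in lens markers. Leaving out any single library changed none of the rhythm calls of the 8 genes tested.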

How the results depend on the processing

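The rhythm calls of Drd4 and Drd2 held in both genotypes, and that of Adcy1 in diabetic retinas, in each of the 58 fits without a library and 14 other alternatives, with a log2 peak-to-trough of 1.28 to 1.55 for Drd4, 0.485 to 0.819 for Drd2 and 0.364 to 0.499 for diabetic Adcy1. Adcy1 in control retinas was lost without ZT1 and without ZT13 only. No alternative called any of the other 5 genes that passed the filter as rhythmic or any of these 8 between genotypes. The covariation of Th, Ddc, Slc18a2 and Drd2 gave 1 called pair in diabetic libraries and 0 otherwise. The labels do not say what a replicate number stands for, and the numbers were not taken to pair the samples, since 13 of 26 same-numbered pairs had a correlation of 0.1 or less (range -0.181 to 0.533). The median was 0.11, against -0.033 between other numbers. Of 52 libraries, 26 correlated best with their own number, more than chance would give with 4 to 6 libraries to choose from. This is a hint of pairing from the data and not from the design. With the replicate block, the 3 rhythmic genes stayed called in each genotype and no call of the 8 tested genes changed, while Rapgef3 (adjusted p = 0.0594) and Pde4d in control retinas (adjusted p = 0.0505) were lost and 10 genes differed in rhythm. Differences near 0 changed sign. Slc18a2 between genotypes was -0.0045 without the time point and -0.0186 to 0.0258 over left-out libraries. Over left-out libraries, Drd1 between genotypes was -0.0014 to 0.0154, Drd4 at ZT9 -0.13 to 0.017, and ZT17 against ZT5 was -0.205 to 0.00089 for Slc18a2 in control, -0.167 to 0.077 for Th in control and -0.0566 to 0.40 for Th in diabetic retinas. Th in control retinas was 0.024 without the libraries high in lens markers. In diabetic libraries alone, r was 0.041 for Th with Slc18a2 and -0.10 for Ddc with Slc18a2. The cause of these changes was not tested. Over all genes, 2370 were rhythmic in control retinas against 792 without ZT17 and 1182 without ZT5, and 2757 in diabetic retinas against 1365 without ZT17, 1564 without ZT21 and 1803 without ZT9, with fewer libraries in each. Without the time point, 575 genes differed between genotypes against 920. A difference in rhythm was called in 0 to 8 genes over left-out libraries (8 without control ZT1 replicate 6 or ZT17 replicate 5), 10 without ZT1, 3 without ZT17 and 3 with no filter. At ZT17, 34 genes differed between genotypes against 90 by DESeq2, 61 with the replicate block, 22 with no filter and 1 (without diabetic replicate 5) to 91 (without diabetic replicate 1) over left-out libraries. At the other times at most 4 genes were called, against at most 24 by DESeq2 and 14 over left-out libraries. ZT17 against ZT5 gave 2987 genes in control retinas (1401 to 3763 over left-out libraries) and 1455 in diabetic retinas (957 with no filter, 873 to 1766 over left-out libraries). Depth limits Aanat, Tph1 and Ddc, which had at most 30 reads in a library.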
